A study of Caenorhabditis elegans with 91 samples.

Results

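This account describes 44 Caenorhabditis elegans genes whose small RNAs were abundant in wild-type animals and scarce in animals that lack the double-stranded RNA binding protein RDE-4. They were chosen from the small RNA counts themselves: at 20 °C the mean over the 3 N2 libraries had to reach 10 CPM (counts scaled to the sum over all genes of the library) and 8 times the mean over rde-4 replicates 1 to 3. Of 21965 genes in the small RNA tables, 61 met both limits, and 17 of these (histone, F-box and nuclear receptor genes, and other named loci) were left out by name. The remaining 44 are described here.

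The series holds 91 libraries, 64 of small RNAs and 27 of mRNA, made from whole adults, from their isolated neurons or from their gonads. The mutant is rde-4(ne299), strain BFF 12, with 11 whole-animal libraries at 20 °C and 3 at 25 °C. It is set against N2 Bristol wild type, with 3 libraries at each temperature. Every transgenic group carries rde-4(ne299) as well, so its own RDE-4 comes from the transgene alone. pigSi3 (BFF 16) is an insertion named as a single copy, with rde-4 under the promoter of sng-1, a synaptic vesicle gene. pigEx9 (BFF 14) carries the same promoter on an extrachromosomal array with a myo-3 promoter mCherry marker, which is read in muscle. pigEx10 (BFF 15) uses the rgef-1 promoter, another promoter read across neurons, with an unc-122 promoter GFP marker read in coelomocytes. Arrays of this kind hold many copies and can be lost from some cells of an animal. P0 animals carry the array, and F1 and F3 are rde-4(ne299) descendants that lost it. The pigSi3 F3 groups are rde-4 mutant descendants of a BFF 16 heterozygote. All neuron groups carry otIs356, a rab-3 promoter red fluorescent reporter: BFF 32 is rde-4 with pigSi3, BFF 31 is rde-4 and BFF 30 is otherwise wild type. All transgenic, neuron and gonad groups are at 20 °C. Gonads came from BFF 16, from pigSi3 F3 animals, from BFF 12, and from BFF 33 (pigSi3, sid-1(qt9), rde-4) with BFF 13 (sid-1(qt9), rde-4) as its control. There are no wild-type gonad libraries, so the gonad data show the transgene and not the loss of RDE-4.

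RDE-4 binds long double-stranded RNA and works with Dicer, which cuts it into small interfering RNAs. RNA-dependent RNA polymerases then copy the target transcript into many more secondary small RNAs, and these make up most of the small RNAs that silence worm genes. A branch of this system needs the Argonaute ERGO-1 and acts on poorly conserved, often duplicated genes, pseudogenes and long noncoding RNAs. The counts analysed here carry neither length, class nor strand, so primary and secondary small RNAs were counted together.

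The 44 genes are unlike the typical gene with small RNAs in their annotation. In the RefSeq gene list of assembly WBcel235, 42 of the 44 were found by name. Protein-coding genes made up 29 of these (69.0%), pseudogenes 10 (23.8%) and long noncoding RNAs 3 (7.14%). Among the other 6567 matched genes of at least 10 CPM in N2, the shares were 95.5%, 4.31% and 0.0609%. The pseudogenes include Y59H11AR.6, F39E9.7, Y17D7B.7 and T08B6.2, and the noncoding RNAs are Y9D1A.1, F19G12.10 and F40H3.6. Only 2 of the 42 (4.76%) have a gene name, against 64.6% of the other genes. These are fshr-1, a homolog of the glycoprotein hormone receptors of vertebrates, and B0001.6, now called eri-12, a name given to genes whose loss enhances RNA interference. Histone, F-box and nuclear receptor genes were left out of the 44 by name but stayed among the other genes. The rule itself therefore lowers the share with a gene name, and it can shift gene types and lengths. The 44 genes were also short, with a median length of 1172.5 bases, against 2630 bases for the other genes. No role is given below for a gene that is not annotated with one.

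Several members lie side by side. In the RefSeq order, 15 of the 42 have another member within 5 genes. ZK402.1, ZK402.2 and ZK402.5 stand in a row with ZK402.3, one of the genes left out by name, and close to F19G12.4, F19G12.9 and F19G12.10. Y43F8B.8, Y43F8B.9 and Y43F8B.22 form another row, and F55C9.3 with F55C9.5, T24D5.6 with T24D5.11 and Y9D1A.1 with Y9D1A.2 form pairs. Y17D7B.7 is next to Y17D7B.4, which was left out by name. Such neighbours may share sequence, and how reads with several matches were handled is not recorded, so the values of near-identical copies are uncertain. In the same list 11 of the 42 overlap another gene, among them R05G6.5 with plc-4, Y65B4BL.7 with deps-1 and acs-13, and Y44E3A.1 with edc-4. T05G5.4 overlaps T05G5.5, and Y36E3A.2 overlaps fbxa-209, of the F-box family left out by name. Without strand, small RNAs of a gene and of one that overlaps it cannot be told apart.

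At 20 °C, the comparison that chose the genes, their small RNAs summed to 318 to 332 CPM in the 3 rde-4 libraries, against 7539 to 9080 CPM in the 3 N2 libraries. These values are a description and were not tested. The highest in N2 was the pseudogene Y59H11AR.6, with 75.3, 79.8 and 72.0 CPM in rde-4 animals, against 1352, 1284 and 1374 CPM in N2. Y57G11C.51 had 68.2, 57.3 and 64.5 CPM in rde-4 animals, against 1481, 1087 and 1127 CPM in N2. E01G4.5 averaged 21.3 ± 2.22 CPM in rde-4 animals and 1208 ± 333 CPM in N2 (SD, n = 3 each). Y57G11C.51 and E01G4.5 are annotated as protein-coding, and in all 3 genes every N2 library lay far above every mutant library. Y37E11B.2 averaged 5.12 ± 0.460 CPM in rde-4 animals and 668 ± 86.3 CPM in N2, and the pseudogene F39E9.7 24.8 ± 3.12 CPM in rde-4 animals and 601 ± 85.9 CPM in N2. K06B9.6 averaged 2.64 ± 0.799 CPM in rde-4 animals and 481 ± 38.8 CPM in N2.

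The other members of the 12 highest followed the same order of groups. T05G5.4 averaged 2.92 CPM in rde-4 animals and 252 CPM in N2, F43E2.6 27.1 and 239 CPM, Y36E3A.2 0.966 and 178 CPM, R05G6.5 13.2 and 136 CPM, Y65B4BL.7 7.34 and 131 CPM, and C18D4.4 3.12 and 125 CPM. No member was at 0 counts in all 3 rde-4 libraries. The share left in rde-4 animals ranged from 0.24 to 11.3% of the N2 level, with a median of 5.06%. fshr-1 met the limits through its mean alone: it had 1.19, 0.757 and 1.27 CPM in rde-4 animals, against 0.955, 14.6 and 19.3 CPM in N2, so N2 replicate 1 lies within the mutant range. Just inside the 8-fold limit were F43E2.6 (8.82-fold lower in rde-4 animals), F29G9.1 (8.84) and Y9D1A.2 (9.0), and just outside it H37A05.4 (7.50), ser-5 (7.47) and F39E9.10 (7.35).

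**Figure D1:**
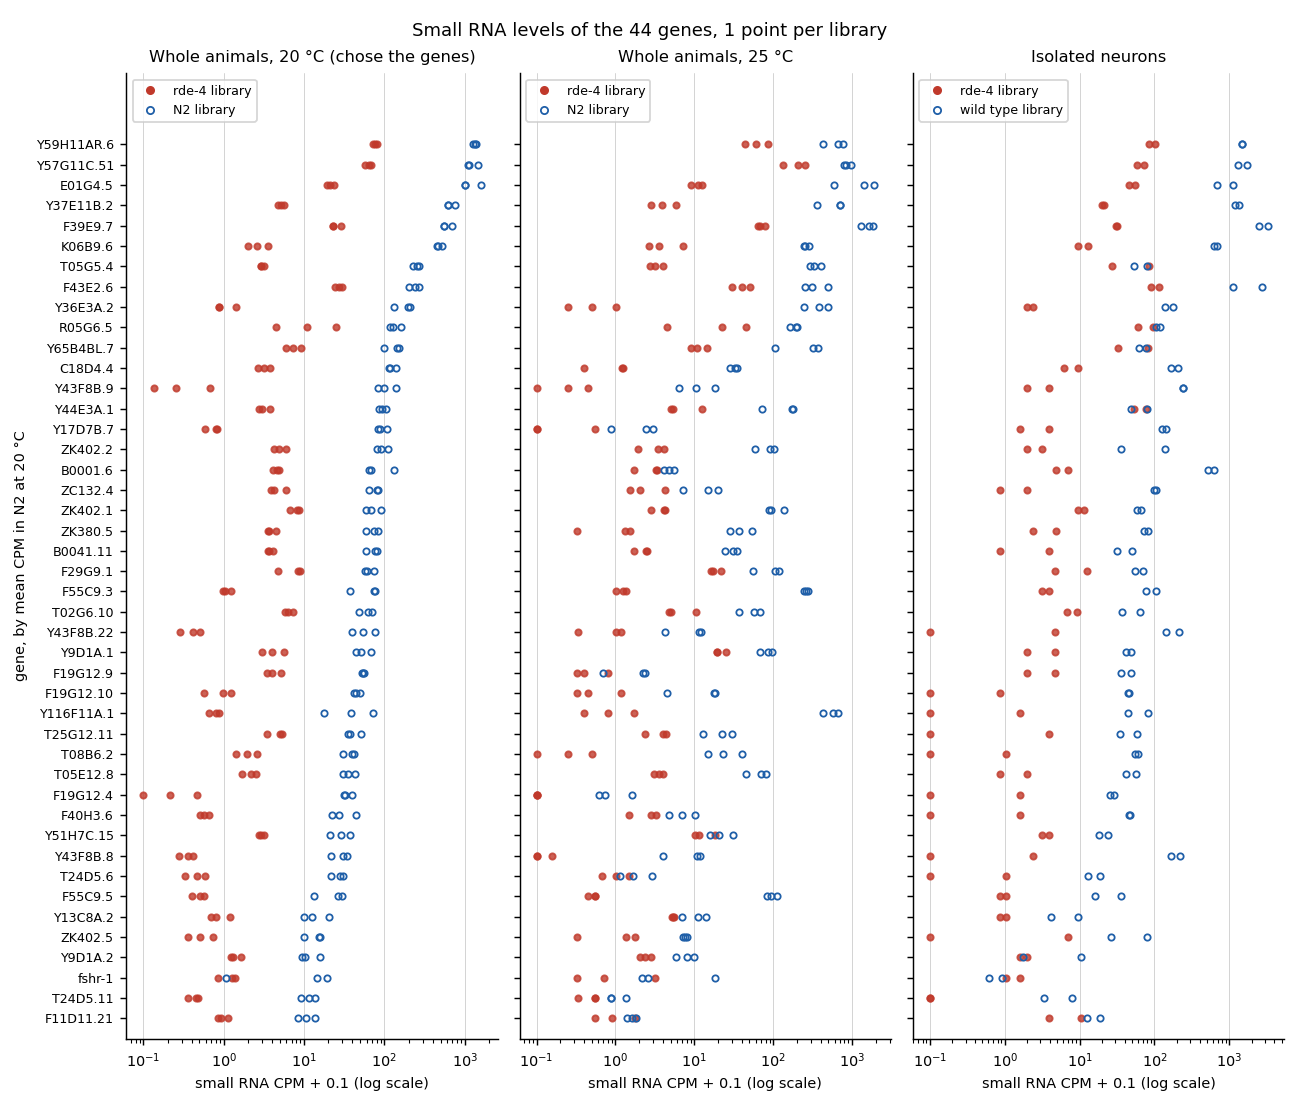
Small RNA level of each of the 44 genes in every library, as CPM + 0.1 on a log axis, for whole animals at 20 °C, whole animals at 25 °C and isolated neurons (filled: rde-4; open: N2 or wild type). At 20 °C, where the genes were chosen, fshr-1 is the gene whose groups overlap, with N2 values of 0.955 to 19.3 CPM. In neurons T05G5.4, R05G6.5, Y65B4BL.7 and Y44E3A.1 lie at like levels in both genotypes, and each of them overlaps another gene.

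At 25 °C, in libraries the choice did not use, the small RNAs of these genes were again low without RDE-4. Their sum was 532 to 547 CPM in the 3 rde-4 libraries, against 6468 to 9751 CPM in the 3 N2 libraries, with no overlap. By edgeR's quasi-likelihood test with Benjamini-Hochberg adjustment over all genes tested, 34 of the 40 members that passed the filter on low counts were lower in rde-4 animals at an adjusted p under 0.05, and 0 were higher, also before adjustment and by DESeq2. Of all 10524 genes tested, 6.97% were lower and 9.54% higher. The members' median log2 fold change was -4.18, against 0.0061 over all genes tested. A gene that is high in N2 alone can pass the filter, so the share among members that passed is a description. Fewer cells of a type and less small RNA per cell cannot be told apart in such bulk libraries, and the labels do not say whether replicates are separate cultures, so each p-value is set against the spread among libraries, which may be technical.

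The largest change at 25 °C was that of Y36E3A.2, which had 0.915, 0.405 and 0.152 CPM in rde-4 animals, against 493, 377 and 246 CPM in N2 (log2 fold change -9.84 ± 0.62 SE, adjusted p = 9.34e-05). Y116F11A.1 had 1.60, 0.694 and 0.303 CPM in rde-4 animals, against 568, 656 and 430.3 CPM in N2 (-9.57 ± 0.57, adjusted p = 7.80e-05). In both genes no mutant library came above 1.60 CPM and no N2 library below 246 CPM. Y36E3A.2 overlaps the F-box gene fbxa-209, and small RNAs of the overlapping genes cannot be told apart. The neighbours F55C9.5 and F55C9.3 fell by 8.02 and 7.92 on the log2 scale, to means of 0.42 and 1.11 CPM in rde-4 animals, against 96.7 and 260 CPM in N2. Y43F8B.8, Y37E11B.2, E01G4.5, T05G5.4, T08B6.2, K06B9.6, Y43F8B.9 and ZK380.5 fell by 5.26 to 7.72. Y57G11C.51 changed less, with 198 ± 61.0 CPM in rde-4 animals and 863 ± 88.3 CPM in N2 (SD, n = 3 each; log2 fold change -2.16).

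The other 10 members were not called at 25 °C. Y17D7B.7, F19G12.9, F19G12.4 and T24D5.11 did not pass the filter, with N2 means of 0.901 to 2.0 CPM. F19G12.4 had 0 counts over the 3 rde-4 libraries and 36 over the 3 N2 libraries, which is at least 2.06-fold lower with a floor of 3 counts per library. B0001.6 averaged 2.69 CPM in rde-4 animals and 4.70 CPM in N2 at 25 °C (adjusted p = 0.125), although its 20 °C N2 values were 63.4, 68.6 and 131 CPM. Y51H7C.15, T24D5.6, Y13C8A.2, fshr-1 and F11D11.21 had log2 fold changes of -0.72 to -2.42 and did not pass the threshold either. The 20 and 25 °C libraries are in separate runs of records, so the temperatures were not compared by a test.

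In isolated neurons the members' small RNAs summed to 680.2 and 768 CPM in the 2 rde-4 libraries, against 12436 and 15042 CPM in the 2 wild-type libraries. Of 40 members tested, 32 were lower in rde-4 neurons and 0 were higher, also before adjustment and by DESeq2, where 1.47% of all 7537 genes were lower and 1.92% higher. The members' median log2 fold change was -4.73, against 0.0017 over all genes. A gene high in wild-type neurons alone can pass the filter, so the shares among members tested in neuron small RNA are descriptions. F39E9.7 had the highest level, with 31.2 and 30.4 CPM in rde-4 neurons, against 2472 and 3241 CPM in wild-type neurons (log2 fold change -6.56 ± 0.52 SE, adjusted p = 0.00342 by edgeR). Its call did not hold without either rde-4 replicate (adjusted p = 0.163 and 0.346), though its log2 fold change stayed at -6.51 and -6.62. Y59H11AR.6 had 84.4 and 100.6 CPM in rde-4 neurons, against 1498 and 1483 CPM in wild-type neurons. Y37E11B.2 had 21.3 and 19.9 CPM in rde-4 neurons, against 1335 and 1203 CPM in wild-type neurons.

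Genes of low rank in whole animals were among the largest changes in neurons. Y43F8B.8 averaged 1.14 CPM in rde-4 neurons and 193 CPM in wild-type neurons (log2 fold change -7.19 ± 0.45 SE, adjusted p = 3.90e-09 by edgeR). T08B6.2, B0001.6, F19G12.10, Y43F8B.9, ZC132.4, Y36E3A.2, Y43F8B.22, Y116F11A.1 and K06B9.6 fell by 5.88 to 6.85. B0001.6 had 6.85 and 4.74 CPM in rde-4 neurons, against 522 and 619 CPM in wild-type neurons. Y43F8B.22 rested on 2 uneven mutant libraries (4.56 and 0 CPM), against 143 and 211 CPM in wild-type neurons, and its adjusted p of 0.0360 was 0.308 with DESeq2 and 0.112 to 0.278 without 1 of the 4 libraries.

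The other 8 members tested did not pass in neurons. F43E2.6 (101.3 CPM in rde-4 neurons, 1936 CPM in wild type), ZK402.2 (2.47 and 88.0 CPM) and ZK402.5 (3.42 and 53.3 CPM) had low mutant levels but uneven libraries, with adjusted p from 0.067 to 0.183, and F11D11.21 was low in both genotypes (7.12 and 15.6 CPM, adjusted p = 0.381). T05G5.4, R05G6.5, Y65B4BL.7 and Y44E3A.1, singled out after their values were seen, had like levels in both genotypes. Each of them overlaps another gene, so the levels may include small RNAs of that gene, which cannot be told apart. T05G5.4 had 27.4 and 85.4 CPM in rde-4 neurons, against 53.1 and 79.1 CPM in wild-type neurons. R05G6.5 averaged 78.2 ± 26.1 CPM in rde-4 neurons and 111 ± 9.07 CPM in wild-type neurons (SD, n = 2 each; adjusted p = 0.291 by edgeR). Y44E3A.1 had 76.1 and 53.1 CPM in rde-4 neurons, against 78.7 and 48.9 CPM in wild-type neurons, and its groups overlap. All 4 were 8-fold or more lower without RDE-4 in whole animals at 20 °C, where they were chosen, and each was lower at 25 °C; the difference between whole animals and neurons was not tested.

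pigSi3, the single-copy insertion, raised the small RNAs of 5 members in neurons. Of the 40 tested, 5 were higher in pigSi3 neurons than in rde-4 neurons and 0 lower, where 0.464% of all genes were higher and 0.504% lower, and at an unadjusted p under 0.05 the counts were 9 and 3 (DESeq2 called 6 and 0). F39E9.7 had 1129 and 494 CPM in pigSi3 neurons, against 31.2 and 30.4 CPM in rde-4 neurons (log2 fold change 4.75 ± 0.50 SE, adjusted p = 0.0260 by edgeR). B0001.6 had 185 and 80.2 CPM in pigSi3 neurons, against 6.85 and 4.74 CPM in rde-4 neurons (4.46 ± 0.46, adjusted p = 0.000186). Both carrier libraries of each gene lay above both mutant libraries, and pigSi3 replicate 1 was the higher in both. Y17D7B.7 (log2 fold change 2.52), F55C9.3 (2.41) and Y59H11AR.6 (1.72) also rose. Without rde-4 replicate 1 a single member was called higher and without replicate 2 there were 3, while 1 was called lower in each case. B0001.6 then had log2 fold changes of 4.68 and 4.31 (adjusted p = 0.147 and 0.176). Without rde-4 replicate 1 Y17D7B.7 had 1.88 and F55C9.3 2.17 (adjusted p = 0.182 and 0.106), and without pigSi3 replicate 2 Y17D7B.7 had 2.42 (adjusted p = 0.0592). The call of F39E9.7 was lost without rde-4 replicate 1 (log2 fold change 4.70, adjusted p = 0.561) and without replicate 2 (4.81, adjusted p = 0.697). With a replicate block (4.72) and with library totals in place of TMM scaling (4.70) its adjusted p was 0.0545 and 0.165.

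These 5 genes did not reach the wild-type level. F39E9.7 stood at 28.4% of the wild-type mean in pigSi3 neurons and at 1.08% in rde-4 neurons, B0001.6 at 23.2% and 1.02%, F55C9.3 at 21% and 3.71%, Y59H11AR.6 at 20.0% and 6.21%, and Y17D7B.7 at 10.5% and 1.97%. Set against wild type, 31 of the 40 members were lower in pigSi3 neurons and 0 higher (1 before adjustment, 0 by DESeq2), where 1.25% of all genes were lower and 0.929% higher. This comparison shares the pigSi3 libraries and the filter with the one above, and its share of members is a description too, since wild-type levels alone can pass a gene. F43E2.6 had the highest carrier level of all, with 1618 and 862 CPM in pigSi3 neurons, against 113 and 89.2 CPM in rde-4 neurons, and its log2 fold change of 3.65 did not pass (adjusted p = 0.353). The median log2 fold change over the members was -0.06 in pigSi3 over rde-4 neurons, against -0.0032 over all genes.

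**Figure D2:**
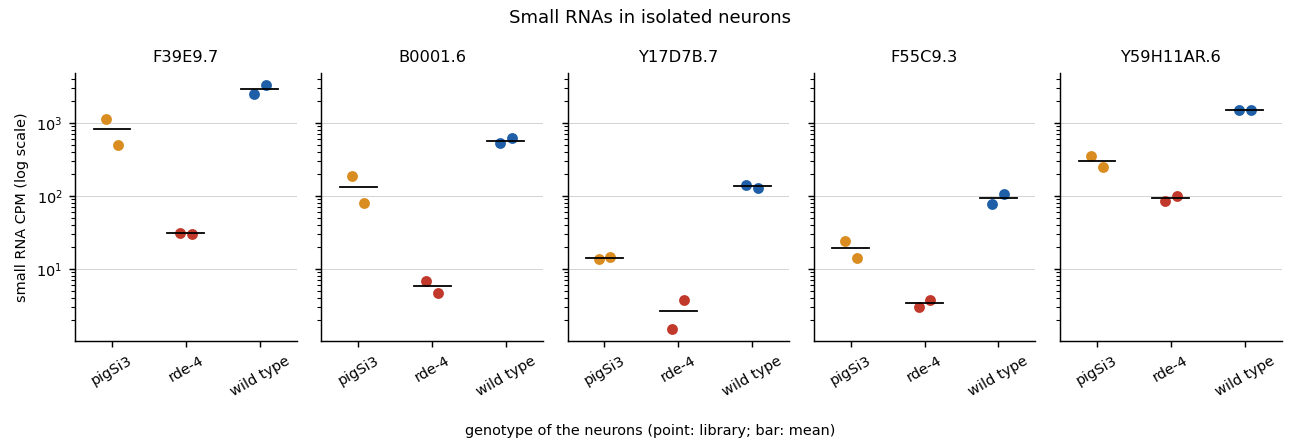
Small RNA CPM in isolated neurons on a log axis, for the 5 genes higher in pigSi3 than in rde-4 neurons; each point is a library (2 per group) and each bar a mean. The pigSi3 values lie between those of rde-4 and wild-type neurons, as for F39E9.7 with 1129 and 494 CPM in pigSi3, 31.2 and 30.4 CPM in rde-4 and 2472 and 3241 CPM in wild-type neurons.

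In whole animals the multicopy arrays raised about as many of the members tested as they left uncalled. In pigEx9 P0 animals the members summed to 1285 to 2287 CPM over 6 libraries, against 277 to 461 CPM over the 5 rde-4 libraries of the same runs of records. In pigEx10 P0 animals they summed to 4049, 4303 and 5575 CPM, against 428 to 463 CPM in the 3 rde-4 libraries of that run. In both arrays every carrier sum lay above every mutant sum. For comparison N2, from another run of records, had 7539 to 9080 CPM, and run and genotype cannot be told apart in that last step. A large part of the carrier sums came from Y59H11AR.6. It averaged 2649 CPM of a mean sum of 4642 CPM in pigEx10 carriers, and 616 CPM of 1651 CPM in pigEx9 carriers. The median member stood at 12.1% of its N2 mean in pigEx10 carriers and at 10.1% in pigEx9 carriers, so the sums do not describe the typical member.

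With pigEx9, 18 of 37 members tested were higher in P0 carriers than in rde-4 animals and 1 lower, where 1.84% of 11121 genes were higher and 4.31% lower. The members' median log2 fold change was 1.08, against 0.0037 over all genes. A gene high in the carriers of an array alone can pass the filter. The shares among members tested with either array, here and after its loss, are therefore descriptions. Y17D7B.7 had 37.6 to 99.2 CPM in the 6 carrier libraries with a median of 69.3 CPM, against 0 to 0.840 CPM in the 5 rde-4 libraries (log2 fold change 7.53 ± 0.59 SE, adjusted p = 3.43e-06 by edgeR). F19G12.4 and F19G12.10, which lie close together, rose by 6.32 and 4.24 on the log2 scale. Y36E3A.2 (5.23), Y37E11B.2 (4.84), T08B6.2 (4.41), K06B9.6 (4.32), Y59H11AR.6 (2.79), F39E9.7 (2.44), F43E2.6 (2.02), F55C9.3 (2.01) and C18D4.4 (1.15) rose as well, and the carrier and mutant libraries of these genes did not overlap.

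The pigEx9 libraries fall into 2 runs of records, and the count was 15 higher in the first run alone and 12 in the second. T08B6.2 had 8.63, 8.05 and 10.2 CPM in the carriers of the first run and 57.3, 59.9 and 47 CPM in those of the second. F55C9.3 and C18D4.4 were not called in the first run alone, with log2 fold changes of 1.13 and 0.51 there, and without the run as a term F55C9.3 was not called (adjusted p = 0.0713). R05G6.5 was called (2.49, adjusted p = 0.0225) with groups that overlap: its carriers had 51.7, 64.4 and 54.3 CPM in the first run and 9.76, 7.39 and 50.8 CPM in the second, against 3.08 to 11 CPM in the 5 rde-4 libraries. The 1 member called lower was ZC132.4, with 1.24 to 3.68 CPM in carriers and 3.92 to 8.07 CPM in rde-4 animals (fell by 1.20, adjusted p = 0.0220). That call was lost without P0 replicate 1, 2 or 3 or rde-4 replicate 4 (log2 fold change -0.77 to -1.18).

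With pigEx10, 19 of 37 members tested were higher in P0 carriers and 0 lower (1 before adjustment, 0 by DESeq2), where 1.28% of 11252 genes were higher and 0.515% lower, and the members' median log2 fold change was 1.61, against -0.0041 over all genes. Y43F8B.22 had 26.2, 22.9 and 43.2 CPM in carriers, against 0, 0.109 and 0.225 CPM in rde-4 animals (log2 fold change 8.02 ± 0.63 SE, adjusted p = 7.93e-06 by edgeR). Its neighbour Y43F8B.9 had 61.7, 56.3 and 91.2 CPM in carriers, against 0.346, 0.873 and 0 CPM in rde-4 animals (7.09 ± 0.45, adjusted p = 1.16e-06). The third gene of that row, Y43F8B.8, rose by 5.60, and in none of the 3 did carrier and mutant libraries overlap. Y43F8B.22 and Y43F8B.9 did not pass the filter with pigEx9. Y17D7B.7 (6.99), Y36E3A.2 (6.76), Y37E11B.2 (6.43), ZK402.5 (6.18), K06B9.6 (5.73), F55C9.5 (5.41), F55C9.3 (5.28), T08B6.2 (4.32), Y59H11AR.6 (4.09) and F39E9.7 (3.91) rose too. The call of T08B6.2 was lost without any 1 of the rde-4 libraries (adjusted p = 0.0512 to 0.0643).

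Some members came near the N2 level with pigEx10 and others passed it. ZK402.5 had 125, 116 and 164 CPM in carriers, against 1.04, 2.62 and 1.58 CPM in rde-4 animals, and this is 1002% of its N2 mean. Y59H11AR.6 had 2531, 2323 and 3093 CPM in carriers, against 160, 142 and 169 CPM in rde-4 animals, which is 198% of N2. F55C9.3 stood at 186% of N2, F55C9.5 at 98.7%, Y17D7B.7 at 93.8%, T08B6.2 at 80.2% and Y37E11B.2 at 79.6%. In all 11 of the 44 members were at 50% of N2 or more in pigEx10 carriers, 2 were in pigEx9 carriers, 1 in the rde-4 libraries of the pigEx10 run and 0 in those of the pigEx9 runs. N2 is from another run of records, so the percentages place levels side by side and were not tested.

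The arrays differed in which members they raised. Of the 18 members higher with pigEx9 and the 19 higher with pigEx10, 14 were the same. When the effects were set against each other in 1 model with the run as a term, the effect was larger in pigEx10 for 8 members and smaller for 1, where 2.71% of 12085 genes were larger and 0.654% smaller. The largest difference was that of ZK402.5 (6.82 ± 0.87 on the log2 scale, adjusted p = 4.81e-05 by edgeR), which had 0 to 3.5 CPM in pigEx9 carriers and 0.280 to 4.28 CPM in their rde-4 libraries. Y43F8B.22 (6.71), Y43F8B.9 (5.69), F55C9.5 (4.49) and F55C9.3 (3.23) followed, and Y37E11B.2, F39E9.7 and Y59H11AR.6 differed by 1.26 to 1.55. F19G12.10, named because it is the 1 smaller effect, differed by -2.67 ± 0.68 (adjusted p = 0.0285): its carriers had 5.74 CPM in pigEx10 and 5.18 CPM in pigEx9, and their rde-4 libraries 1.80 and 0.263 CPM. Promoter, co-marker, array and run of records all differ between the lines and cannot be told apart.

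Of the 44 members, 21 were not called higher with either array, among them Y57G11C.51, the second highest in N2, which had 54.9 ± 8.30 CPM in pigEx9 carriers and 51.8 ± 6.95 CPM in their rde-4 libraries (SD, n = 6 and 5). In pigEx10 carriers it had 93.6 CPM and in their rde-4 libraries 86.6 CPM. E01G4.5, the third, moved little although it was called: 28.7 CPM with pigEx9 and 18.2 CPM in rde-4 animals (log2 fold change 0.78), 27.1 CPM with pigEx10 and 15.5 CPM in rde-4 animals (0.81), against 1208 CPM in N2. ZK402.1 and ZK402.2, in the same row of genes as ZK402.5, had log2 fold changes of 0.06 and 0.89 with pigEx10 and were not called. In each array 7 members did not pass the filter, among them Y116F11A.1, Y13C8A.2, F40H3.6 and T24D5.6 in both.

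**Figure D3:**
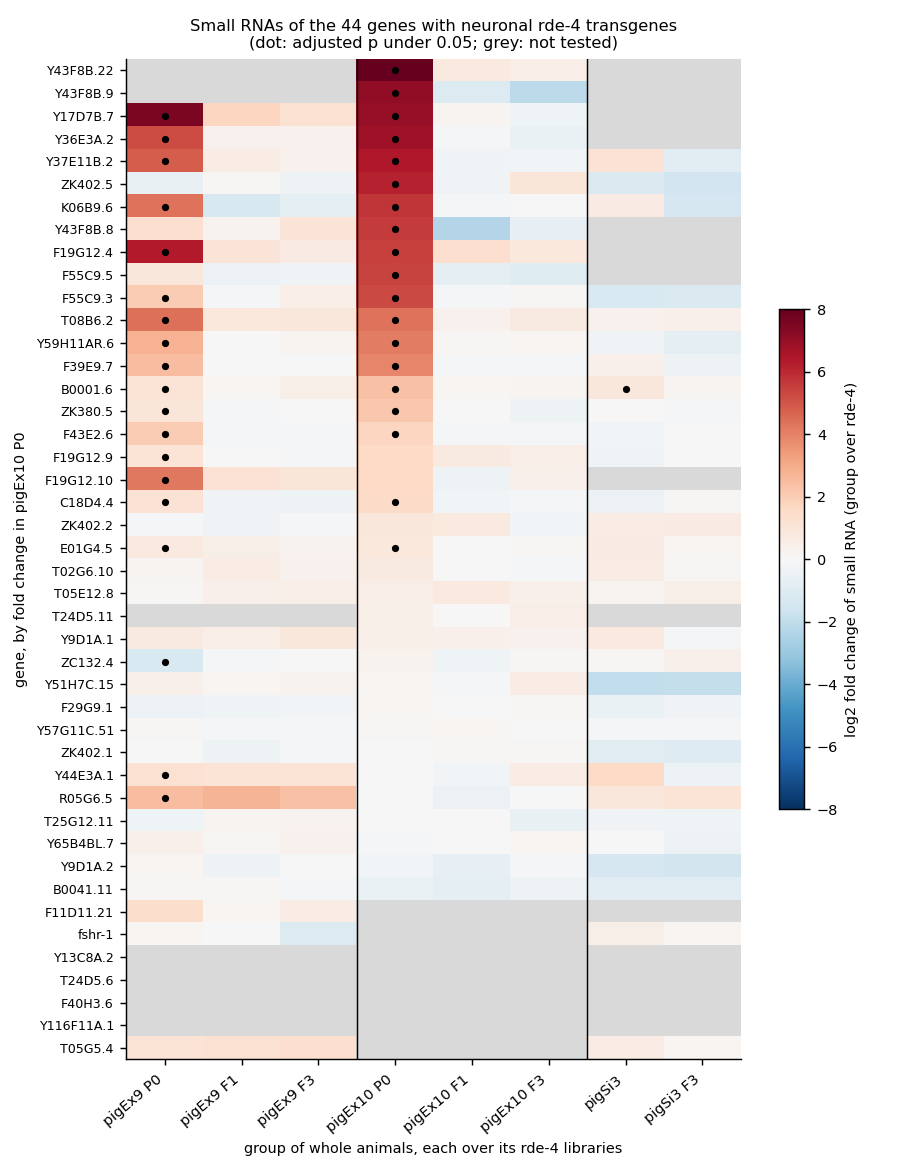
Log2 fold change of small RNA for the 44 genes (rows, by their change in pigEx10 P0) in 8 groups of whole animals, each over its rde-4 libraries; dots mark an adjusted p under 0.05 and grey marks genes that were not tested. The P0 columns hold 18 and 19 higher calls, the F1 and F3 columns of both arrays hold 0, and the pigSi3 column holds 1.

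Once the array was lost no member was called against rde-4, although R05G6.5 stood above all its rde-4 libraries in pigEx9 descendants. By edgeR, 0 of 37 members were called in either direction in pigEx9 F1 (background 0.036% higher and 0.0719% lower), pigEx9 F3 (0.018% and 0.00899%), pigEx10 F1 (0.151% and 0.204%) and pigEx10 F3 (0.178% and 0.178%) animals against rde-4, and DESeq2 also called 0. At an unadjusted p under 0.05, 4, 4, 1 and 2 were higher and 0, 0, 2 and 0 lower. In F3 animals set against their P0 carriers, 12 members were lower and 0 higher with pigEx9, where 0.522% of all genes were lower and 0.692% higher. With pigEx10, 19 were lower and 0 higher, where 0.755% were lower and 0.0444% higher. At an unadjusted p under 0.05, 2 and 0 were higher, and DESeq2 called 1 and 0 higher. Y43F8B.9 had 0, 0 and 0.249 CPM in pigEx10 F3 animals, against 61.7, 56.3 and 91.2 CPM in P0 carriers (fell by 9.19, adjusted p = 7.10e-07 by edgeR). Y17D7B.7 averaged 1.01 ± 0.631 CPM in pigEx9 F3 animals and 68.8 ± 24.5 CPM in P0 carriers (SD, n = 3 and 6; fell by 6.31).

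ZK402.5 stood at 4.85, 2.81 and 3.62 CPM in pigEx10 F3 animals, against 1.04, 2.62 and 1.58 CPM in rde-4 animals (log2 fold change 0.98, adjusted p = 0.49). R05G6.5 differed widely between libraries. It had 49.5 and 66.4 CPM in the 2 usable pigEx9 F1 libraries and 24.8, 56.6 and 55.6 CPM in F3, against 3.08 to 11 CPM in the rde-4 libraries. The F1 and F3 log2 fold changes of 2.69 and 2.37 did not pass (adjusted p = 0.377 and 0.537). In the rde-4 replicates 1 to 3 it ranged from 4.44 to 24.6 CPM.

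In whole animals pigSi3 moved 1 member past the threshold. Of 30 members tested, 1 was higher and 0 were lower (4 and 4 before adjustment, 3 and 3 by DESeq2), where 1.33% of 11615 genes were higher and 2.72% lower; rde-4 replicates 4 to 11 served as the mutant, since replicates 1 to 3 had chosen the genes, and they come from other runs of records than pigSi3, which cannot be told apart from the transgene. The 1 was B0001.6, with 8.21, 8.20 and 8.32 CPM in pigSi3 animals, against 2.80 to 4.96 CPM in the 8 rde-4 libraries (log2 fold change 0.92 ± 0.19 SE, adjusted p = 0.0159 by edgeR). Its call was lost without any 1 of the pigSi3 libraries (adjusted p = 0.0813 to 0.0917). Y37E11B.2 had 21.6, 16.0 and 15.3 CPM in pigSi3 animals, against 3.08 to 15.9 CPM in rde-4 animals. In pigSi3 F3 animals 0 of 30 were called, where 0.0861% of all genes were higher and 0.0344% lower. At an unadjusted p under 0.05, 0 were higher and 8 lower (DESeq2 called 2 lower), where 1983 of the 11615 genes passed in either direction. With rde-4 replicates 9 to 11 as the only controls, 8 members were higher and 10 lower in pigSi3 animals. Of all 12932 genes tested with these controls, 1791 were higher and 1933 lower. In pigSi3 F3 animals 1 member was then higher and 9 were lower, where 1829 of all genes were higher and 1704 lower.

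In gonads the members' small RNAs were low in every group. They summed to 356 and 360.5 CPM with pigSi3, to 253 and 310.1 CPM in pigSi3 F3 gonads and to 298 to 418 CPM in rde-4 gonads. Of 33 members tested, 1 was higher and 0 were lower with pigSi3 (1 and 5 before adjustment, 1 and 0 by DESeq2), where 0.512% of 11517 genes were higher and 1.47% lower. This was R05G6.5, with 53.4 and 61.6 CPM in pigSi3 gonads, against 20.4, 6.71 and 4.78 CPM in rde-4 gonads (log2 fold change 2.46 ± 0.48 SE, adjusted p = 0.0395 by edgeR). Without rde-4 replicate 2 or either pigSi3 library its adjusted p was 0.102 to 0.239. In the sid-1 background, without the importer of double-stranded RNA, its order was the other way, with 11.4 and 16.5 CPM in pigSi3 gonads and 44.8 and 58.1 CPM in their controls (log2 fold change -1.83, adjusted p = 0.432). The difference between these effects was not tested.

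No other gonad small RNA of a member passed the threshold. In pigSi3 F3 gonads 0 of 33 were called, where 0.130% of all genes were higher and 0.0347% lower, with 3 higher and 2 lower at an unadjusted p under 0.05 and 0 by DESeq2. Without F3 replicate 1, the shallowest gonad library, 3 were called higher. With pigSi3 in the sid-1 background 0 were called, where 0.469% were higher and 0.104% lower, with 2 higher and 2 lower at an unadjusted p under 0.05 and 2 lower by DESeq2. Y65B4BL.7 was nearest to the threshold there, with 6.08 and 6.47 CPM in pigSi3 gonads and 28.0 and 22.8 CPM in their controls (log2 fold change -1.97, adjusted p = 0.0623).

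The mRNA of the members was measured in neurons and gonads, and the choice of genes did not use it. The mutation and the transgene were visible in rde-4 itself, which had 1.27 to 4.03 CPM of mRNA in rde-4 neurons, 12.0 to 30.5 CPM in wild-type neurons and 291 to 328 CPM in pigSi3 neurons. The 16 neuron markers looked at, such as rab-3 and snb-1, were all detected and summed to 32978 to 40248 CPM in pigSi3, 14837 to 25018 CPM in rde-4 and 7866 to 36504 CPM in wild-type neurons. The 8 muscle markers, such as myo-3 and unc-54, summed to 17059 to 19559 CPM in pigSi3, 14533 to 16863 CPM in rde-4 and 14235 to 22941 CPM in wild-type neurons. The 6 hypodermis markers summed to 1627 to 2028, 1452 to 3392 and 978 to 10644 CPM in the same order, with none of either list at 0. In that order the 8 intestine markers summed to 211 to 344, 136 to 251 and 230 to 822 CPM. The 5 glia markers in the table summed to 20.7 to 45.9, 11.7 to 88.8 and 45.8 to 337 CPM. Their part in the results that follow was not tested.

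F39E9.7, the member with the most small RNAs in wild-type neurons, was the 1 whose mRNA rose in rde-4 neurons. It had 37.4, 26.7, 47.3 and 64.8 CPM in rde-4 neurons, against 8.46, 7.35, 8.13 and 9.05 CPM in wild-type neurons (log2 fold change 2.71 ± 0.28 SE, adjusted p = 0.000555 by edgeR). Every mutant library lay above every wild-type library. pigSi3 neurons had 21.4, 20.2, 24.7 and 16.0 CPM, all below the rde-4 and above the wild-type libraries, and the log2 fold change of pigSi3 over rde-4 neurons was -1.37 ± 0.26 (adjusted p = 0.122). Its small RNAs had the reverse order of groups: 1129 and 494 CPM in pigSi3, 31.2 and 30.4 CPM in rde-4 and 2472 and 3241 CPM in wild-type neurons. As F39E9.7 is annotated as a pseudogene, reads may be shared with a related gene.

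Of 25 members whose mRNA could be tested in neurons, 1 was higher and 0 were lower in rde-4 neurons (1 and 2 before adjustment, 1 and 1 by DESeq2), where 0.244% of 12693 genes were higher and 0.173% lower. The members' median log2 fold change was 0.12, against -0.14 over all genes. With library totals in place of TMM scaling the median of all genes moved by -0.35, and F39E9.7 remained higher. Other members lower in small RNA in rde-4 neurons were not called in mRNA by edgeR. In simulated data this test recovered 26.5% of 4-fold changes, so a gene that was not called may still have changed. Y59H11AR.6 had 55.3 ± 36.8 CPM of mRNA in rde-4 neurons and 45 ± 15.6 CPM in wild-type neurons (SD, n = 4 each). Y37E11B.2 had 6.96 ± 3.15 CPM in rde-4 neurons and 9.15 ± 6.02 CPM in wild-type neurons. T05G5.4 was lower before adjustment, with 4.42, 1.52, 1.74 and 6.79 CPM in rde-4 neurons and 3.91, 23.4, 20.4 and 12.0 CPM in wild-type neurons (log2 fold change -1.72, adjusted p = 0.148). With pigSi3 0 of 25 were called in neurons, where 0.0236% of all genes were higher and 0.00788% lower, with 2 higher and 1 lower at an unadjusted p under 0.05, and DESeq2 called 1 lower.

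**Figure D4:**
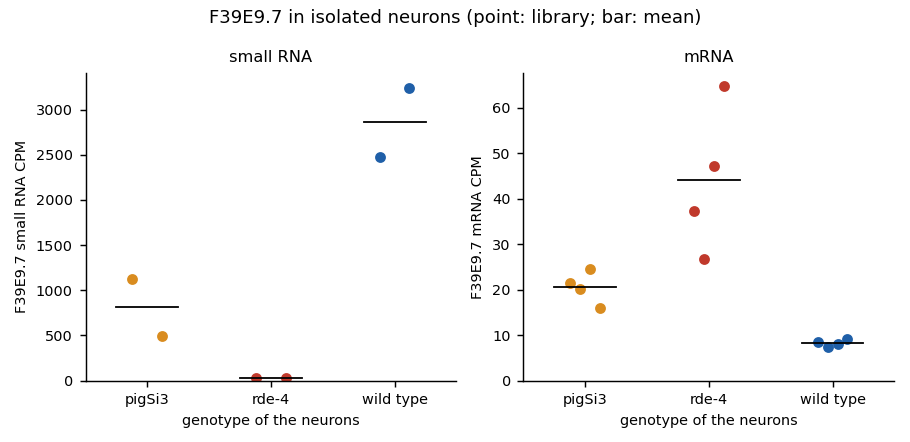
F39E9.7 in isolated neurons, as CPM of small RNA (left, 2 libraries per group) and of mRNA (right, 4 libraries per group); points are libraries and bars are means. Small RNA is lowest in rde-4 neurons, at 31.2 and 30.4 CPM, and mRNA is highest there, at 26.7 to 64.8 CPM, with pigSi3 neurons between rde-4 and wild type in both.

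In the mRNA of gonads with pigSi3, 0 of 25 members were higher (0 also before adjustment and by DESeq2) and 1 was lower, where 0.123% of 10569 genes were higher and 0.360% lower. The 1 was T25G12.11, with 1.19, 1.17 and 0.642 CPM in pigSi3 gonads, against 2.69, 3.91 and 6.41 CPM in rde-4 gonads (fell by 2.00, adjusted p = 0.0252 by edgeR), and leaving out any 1 library other than rde-4 replicate 1 ended the call. In sid-1 rde-4 gonads 0 were higher (2 before adjustment, 0 by DESeq2) and 1 lower than in rde-4 gonads, where 0.142% were higher and 0.246% lower. That was F55C9.3, with 0.341, 0 and 0 CPM in sid-1 rde-4 gonads, against 1.88, 2.44 and 3.71 CPM in rde-4 gonads (adjusted p = 0.0445), a call lost when any 1 of the 6 libraries was left out.

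In pigSi3 F3 gonads 6 of 25 members were higher and 2 lower, where 13.6% of all genes were higher and 14.4% lower. Y36E3A.2 rose by 1.46, Y59H11AR.6 by 1.32, K06B9.6 by 1.26, R05G6.5 by 1.04, B0041.11 by 1.02 and Y37E11B.2 by 0.74 on the log2 scale. K06B9.6 had 15.6, 15.5 and 15.7 CPM in F3 gonads, against 5.60, 5.54 and 6.07 CPM in rde-4 gonads. E01G4.5 and F55C9.3 fell by 1.01 and 1.67, E01G4.5 with groups that overlap. Without rde-4 replicate 3 Y59H11AR.6 had an adjusted p of 0.0574, and without F3 replicate 3 R05G6.5 of 0.0722. With library totals in place of TMM scaling the median of all genes moved by 0.18 in this comparison, and of all calls 66.3% were then higher, against 48.4%. The 14 germline markers summed to 9165 to 10958 CPM in F3 gonads, against 17763 to 19200 CPM in rde-4 gonads, and the sperm markers to 307 to 718 CPM in F3 gonads, against 70.7 to 288 CPM in rde-4 gonads. The 8 muscle markers summed to 517 to 953 CPM in F3 gonads, against 1224 to 1914 CPM in rde-4 gonads, and the 8 intestine markers to 321 to 1007 CPM in F3 gonads, against 1138 to 2206 CPM in rde-4 gonads. The 5 glia markers in the table summed to 0.182 to 2.31 CPM in F3 gonads and 4.76 to 5.54 CPM in rde-4 gonads. The part of these cell types in the changes was not tested.

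The genes of the RNA interference pathway themselves, made a list of 56. At 25 °C 40 of them had small RNAs that could be tested, and 3 were higher and 5 lower in rde-4 animals, where 9.54% of all genes were higher and 6.97% lower. Among the lower were rsd-2 (65.0 ± 8.89 CPM in rde-4 animals, 111 ± 22.2 CPM in N2; SD, n = 3 each) and rde-4 itself (38.1 CPM in rde-4 animals, 61.1 CPM in N2). In array carriers rde-4 was the 1 listed gene called, with 4940 ± 1845 CPM of small RNA in pigEx9 P0 animals and 90.5 ± 15.8 CPM in their rde-4 libraries (SD, n = 6 and 5), and with 3373 ± 933 CPM in pigEx10 P0 animals and 235 ± 21.2 CPM in theirs (n = 3 each). In pigEx9 F1 animals rde-4 still had 274 CPM (adjusted p = 0.0379). Reads of the transgene and of the mutant gene were not told apart. In neuron mRNA rde-4 was likewise the 1 listed gene called in both comparisons. In pigSi3 F3 gonads 1 of 51 was higher and 18 lower, where 13.6% of all genes were higher and 14.4% lower. Among the lower were rde-10, mut-15, ppw-2 and xrn-2, which fell by 1.09 to 1.61.

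Depth set how low a member could be read. Gene counts per library were 735328 to 2530023 for neuron small RNAs, 1841973 to 49953667 for gonad small RNAs, 918317 to 31077625 for whole-animal small RNAs after 1 failed library (pigEx9 F1 replicate 3, 1792 counts) was left out, 5972135 to 15765852 for neuron mRNA and 2746062 to 36765116 for gonad mRNA. A mutant level under 1 CPM in neurons therefore rests on a few reads at most, and counting error alone makes it uncertain.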

How the data were processed

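Small RNAs were sequenced in 64 libraries and mRNA in 27. The deposited files hold whole-number read counts per gene, which the authors made before deposition with cutadapt, FastQC, HTSeq and genome build ce10, per the submitters' processing notes. DESeq2 is named there too. For the aligner, annotation and strand setting: not given in the sources used here. Rows for reads without a feature (17.3 to 71.4% of small RNA reads) stayed out of library sizes. The row for reads with several alignments is 0 in every library, so their treatment is unknown.

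The 44 genes and all lists were chosen with earlier results of these data known. CPM is a gene's count scaled to the summed gene counts of its library. Tests were made in R 4.3.3 with edgeR 4.0.16 (genes kept by filterByExpr, TMM scaling, robust quasi-likelihood F test, Benjamini-Hochberg adjustment over all genes tested, threshold 0.05) and were tested on simulated data. There they recovered from 26.5% (neuron mRNA) to 98% (neuron small RNA) of 4-fold changes, which were placed only in genes above a limit of mean counts. Of the calls in simulated data, 3.24% (pigSi3 whole animals) to 10.1% (neuron small RNA) were false. The share was 8.72% in gonad small RNA and 8.16% at 25 °C, more than the threshold of 0.05 stands for. DESeq2 1.42.0, library totals, no filter, a replicate block and leaving out each library were alternatives. rde-4 replicates 1 to 3 entered no test. Runs of records, used as a term for pigEx9, were read from how the records are listed, since the labels name no batch. pigEx9 F1 replicate 3 was left out. A fold against 0 counts uses a floor of 3 counts per library and covers counting error only.

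Genes named are the 12 highest in N2, the 3 on each side of the 8-fold limit, and in each comparison up to 12 or 5 calls per direction with groups that do not overlap and at least 5 CPM in the higher one, largest first. Others were chosen after their values were seen. Replicate numbers were not used to pair libraries in the main tests: with 3 or more pairs no comparison had every correlation over 0.1. With 2 pairs, small RNA of pigSi3 over rde-4 neurons had 0.19. So few libraries cannot show that they were unpaired. Gene types and neighbours are from the RefSeq list of assembly WBcel235, and no coordinates were used.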

Additional observations from a re-analysis of the deposited data

Results flagged for a closer look

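Among 30 groups of values looked at, 2 held a library far from the others, where chance gives about 1 in 20. Small RNA of Y36E3A.2 stood at 3.03 CPM in rde-4 replicate 6, the highest of 5, with the others at 0.448 to 0.876 CPM. B0001.6 stood at 2.80 CPM in rde-4 replicate 5, the lowest of 8, with the others at 3.98 to 4.96 CPM.

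The effects of the 2 arrays on small RNA differed by edgeR's test of the difference for 9 members. On the log2 scale the effect in pigEx10 carriers minus that in pigEx9 carriers was 6.82 for ZK402.5, 6.71 for Y43F8B.22, 5.69 for Y43F8B.9, 4.49 for F55C9.5, 3.23 for F55C9.3, 1.55 for Y37E11B.2, 1.43 for F39E9.7, 1.26 for Y59H11AR.6 and -2.67 for F19G12.10.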

How the results depend on the processing

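Of 834 values of named genes under the alternatives, 40 lost their call and 0 changed sign, and of 451 counts of called members 59 moved by more than 1.5 times. Each of those 834 values belongs to a gene called in the main test, so none could gain a call. In pigSi3 over rde-4 neurons 1 member was lower without the filter or with a replicate block, and leaving out a library gave 1 to 5 higher and 0 to 1 lower. In whole pigSi3 animals 2 members were higher with library totals, 3 higher and 3 lower with DESeq2, 8 higher and 10 lower with rde-4 replicates 9 to 11 as controls, and 0 higher with any 1 of the 3 pigSi3 libraries left out. In pigSi3 F3 animals 2 were lower with DESeq2, and 1 was higher and 9 lower with those controls. Over all 12932 genes those controls gave 1791 higher and 1933 lower in pigSi3, and 1829 and 1704 in pigSi3 F3 animals. With pigEx9 P0, 0 were lower without the run as a term or in the second run alone, and 0 to 1 with a library left out. DESeq2 called 1 higher in pigEx9 F3 over P0, 1 lower in both neuron mRNA comparisons and 2 smaller effects in pigEx10 than in pigEx9. In gonad small RNA, pigSi3 gave 0 higher without the filter or with a replicate block and 0 to 1 with a library left out, pigSi3 F3 gave 0 to 3 higher with a library left out, and pigSi3 in sid-1 gave 1 lower with library totals, without the filter, and with a replicate block or crossed pairing, and 2 with DESeq2. In gonad mRNA with a replicate block, pigSi3 and sid-1 gave 0 lower and pigSi3 F3 gave 1; F3 also gave 1 with library totals or without the filter. Leaving out a library gave 0 to 1 lower for pigSi3, 0 to 3 for pigSi3 F3 and 0 for sid-1 in all 6 cases. The crossed pairing followed correlations of -0.11 and -0.18 between same-numbered libraries in pigSi3 over wild-type neurons and in the sid-1 gonads. The cause of these differences was not tested. The rule on TMM-scaled CPM gave 50 genes, all 44 among them. With 2 libraries a group in neurons and in most gonad small RNA groups, 1 library can decide a call.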
